A study of Rattus norvegicus with 8 samples.

Results

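The F-box proteins and cullins build one large class of ubiquitin ligases, and 57 of their genes were measured here among 14506 genes in all. They were chosen by symbol: every F-box gene named Fbxo, Fbxl or Fbxw with a number, the cullins, Skp1, Skp2, Rbx1 and Btrc, as the annotation of the array names them, without Fbxo32. Each gene was represented by its brightest probe set among those paired with that gene alone. The set held 50 F-box proteins, 5 cullins (Cul1, Cul2, Cul3, Cul4b and Cul5), the adaptor Skp1 and the RING subunit Rbx1. A further 18 current rat symbols fit the rule but were not paired with a probe set of their own, among them Fbxw7, Cul4a, Cul7 and Cul9, and were not analysed here.

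The cells were primary ventricular heart muscle cells of newborn rats (NRVMs), a short-term culture in which cardiac growth is studied. One group of 4 arrays came from cells given a miR-222 precursor and the other group of 4 arrays from cells given a scrambled control precursor, both at 0.4 µM with the lipid reagent Lipofectamine RNAiMAX and with RNA taken after 48 h. No strain, and no separate culture for each array, is given in the labels, so the spread between arrays may be technical. The control cells also carried a transfected RNA with a sequence of its own, and the comparison holds the effects of both.

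A cullin is a scaffold. At one end it carries a RING protein, Rbx1 or its relative Rnf7, which brings in the enzyme loaded with ubiquitin, and at the other an adaptor that holds a receptor for the protein to be destroyed. In the SCF ligase the scaffold is Cul1, the adaptor is Skp1 and the receptor is one of many F-box proteins, each named after the domain by which it binds Skp1. The letter after Fbx gives the repeats in the receptor: W for WD40 repeats, L for leucine-rich repeats and O for other domains. Attachment of the small protein Nedd8 switches a cullin on, the COP9 signalosome takes Nedd8 off again, and Cand1 exchanges the receptors. In heart muscle these ligases are known for the turnover of cell cycle inhibitors and of sarcomere proteins.

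The mature strand of miR-222 is shown because it is the RNA that the precursor was meant to supply, and miR-221 because it shares the seed, bases 2 to 8, given in capitals. Both are encoded on the plus strand of the X chromosome (RefSeq, build GRCr8), miR-222-3p at chrX:6022682-6022702 and miR-221-3p at chrX:6023246-6023268. The sequence of the synthetic precursor itself is not in the labels. Sites for this seed in the transcripts of the F-box and cullin genes were not examined.
rno-miR-222-3p: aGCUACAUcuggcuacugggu
rno-miR-221-3p: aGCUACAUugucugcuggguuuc

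Of the 57 genes, 8 were higher and 5 were lower in cells with the miR-222 precursor (limma, adjusted p below 0.05). This share, 22.8%, lay near the 24.7% of all genes that passed the same test (11.7% higher and 13.0% lower), so the count is no result about the class as such. With the median of each array set to the same value, the split was 5 higher and 6 lower. Leaving out control array 2 gave 5 higher, and leaving out any of control arrays 1 to 3 or miR-222 arrays 1 and 3 gave 3 lower. The share of all genes that passed fell in these fits too. It was 21.1% with equal medians (19.3% of the 57) and 18.9% without control array 2 (14.0% of the 57). The changes were small. Of the 13 that passed 0 reached 1.5-fold, and of all 3581 genes that passed 525 did (14.7%). No test was made of this. The median difference was 0.02 log2 units over the 57 genes and 0.01 over all genes, and the median size among those that passed was 0.30 in the class and 0.32 over all genes. The values of both groups did not overlap in 19 of the 57 genes, 33.3%, and in 33.3% of all genes. The genes that rose were Cul4b, Fbxo7, Fbxw9, Fbxo33, Fbxo31, Fbxw2, Fbxo8 and Fbxo42, and those that fell were Fbxo3, Skp2, Fbxo28, Fbxw17 and Rbx1.

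**Figure D1:**
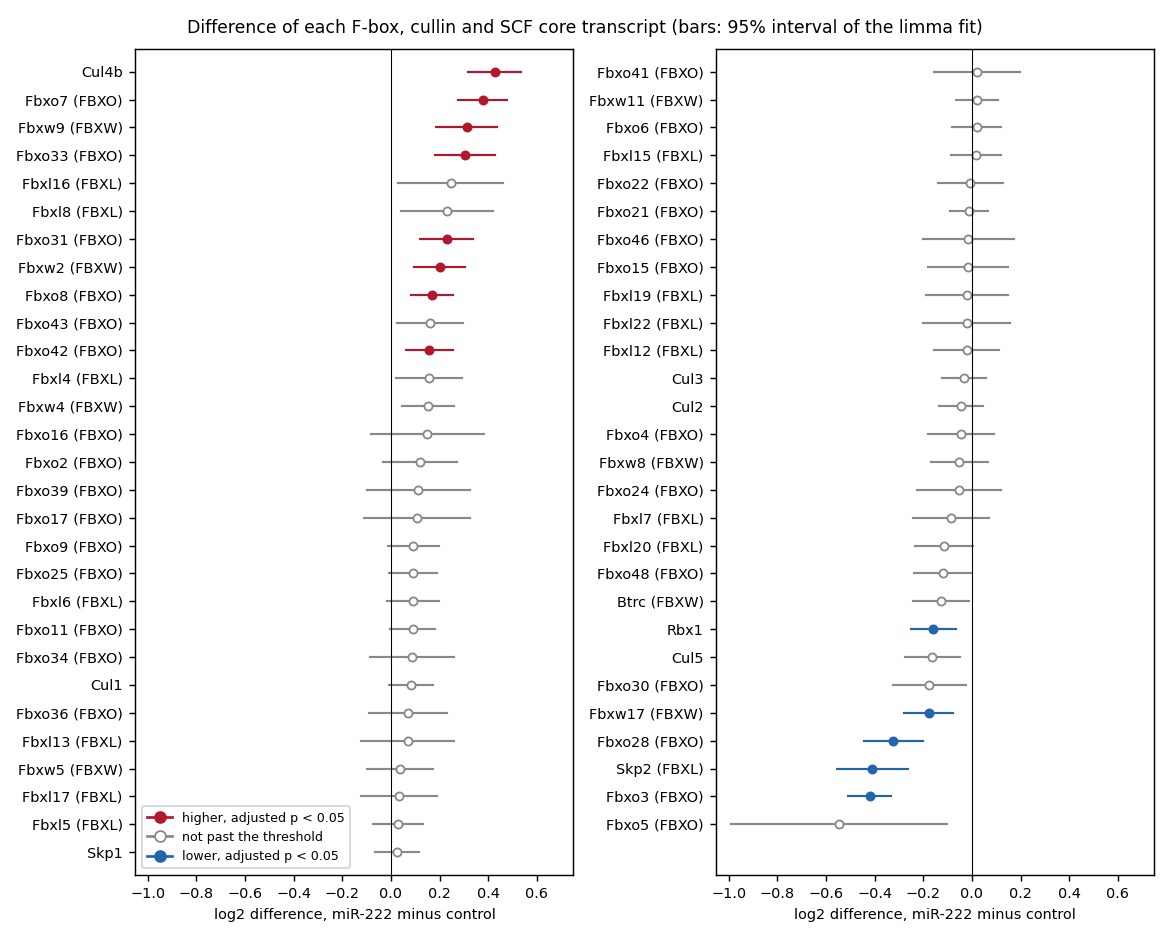
Log2 difference (miR-222 minus control, n = 4 arrays each) of all 57 genes, from the highest at the top left to the lowest at the bottom right, with the 95% interval of the limma fit as a bar. Filled red points are the 8 genes that were higher and filled blue points the 5 that were lower at an adjusted p under 0.05; the widest interval belongs to Fbxo5, which did not pass.

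Values below are log2 intensities of single probe sets, listed for replicates 1 to 4 of each group, and differences give miR-222 minus control, each with its limma standard error (SE). Levels of different probe sets cannot be set against each other. Arrays had median intensities of 202 to 219, and correlations of 0.989 to 0.993 within groups and 0.983 to 0.989 between groups. As a check of the treatment, the kinase gene Hipk2, a reported target of miR-222, stood at 10.71 ± 0.12 with the miR-222 precursor and at 11.93 ± 0.08 with the control precursor (mean ± SD, n = 4 each), which is 2.34-fold lower (limma adjusted p = 5.14e-05). All 9 markers of cardiomyocytes lay above the array median on all 8 arrays, and so did 5 of 8 fibroblast, 4 of 4 smooth muscle, 1 of 4 endothelial and 0 of 5 macrophage and leukocyte markers.

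Among the 5 scaffolds only Cul4b passed the test (20%, near the 24.7% of all genes). It is encoded on the X chromosome and builds ligases with the adaptor Ddb1 that act on chromatin and replication proteins. Probe set 10931893 for Cul4b read 9.71, 9.67, 9.77 and 9.85 in miR-222 cells, against 9.31, 9.31, 9.35 and 9.32 in control cells. Every miR-222 array was above every control array, and the spread was wider in miR-222 cells, with an SD of 0.08, than in control cells, with an SD of 0.02. The difference was 0.43 (SE 0.05), a 1.34-fold rise and the largest rise in the class (limma adjusted p = 6.86e-04), and it passed without any single array (highest adjusted p 0.00416). Its close relative Cul4a was not analysed here.

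Cul5 and Cul1 did not pass, although their groups did not overlap. Cul5, the scaffold of the ligases whose receptors carry a SOCS box, read 10.58, 10.65, 10.49 and 10.59 in miR-222 cells, against 10.73, 10.78, 10.68 and 10.77 in control cells. All miR-222 values were on the low side, and the difference of -0.16 (SE 0.05) stayed just outside the threshold (limma adjusted p = 0.0525). It passed in 7 of 16 alternative settings, without miR-222 replicate 2 among them, with adjusted p from 0.0135 to 0.131 over all of them. Cul1, the scaffold of the SCF, read 11.59, 11.54, 11.53 and 11.61 in miR-222 cells, against 11.53, 11.47, 11.46 and 11.48 in control cells. These groups only just failed to touch, and the difference was 0.08 with a 95% interval of -0.01 to 0.17 (limma adjusted p = 0.193).

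Cul2, which carries the von Hippel-Lindau receptor, and Cul3, which binds receptors with a BTB domain, overlapped between the groups. Cul2 read 10.11 to 10.21 in miR-222 cells and 10.18 to 10.23 in control cells, a difference of -0.04 (95% interval -0.14 to 0.05). Cul3 read 11.79 to 11.89 in miR-222 cells and 11.85 to 11.90 in control cells, a difference of -0.03 (95% interval -0.12 to 0.06).

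Of the remaining SCF core, the adaptor Skp1 did not pass and the RING subunit did. Skp1 read 12.68, 12.64, 12.71 and 12.74 in miR-222 cells, against 12.64, 12.67, 12.68 and 12.68 in control cells. The groups overlapped, and the difference of 0.02, which turned to -0.00076 with median centring, had a 95% interval of -0.06 to 0.11. Rbx1 read 11.23, 11.21, 11.16 and 11.27 in miR-222 cells, against 11.38, 11.34, 11.37 and 11.41 in control cells. Each miR-222 array lay below each control array, by a difference of -0.16 (SE 0.04, limma adjusted p = 0.0280). That call was kept without miR-222 replicate 4 alone and was lost without any other single array (adjusted p up to 0.0778).

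**Figure D2:**
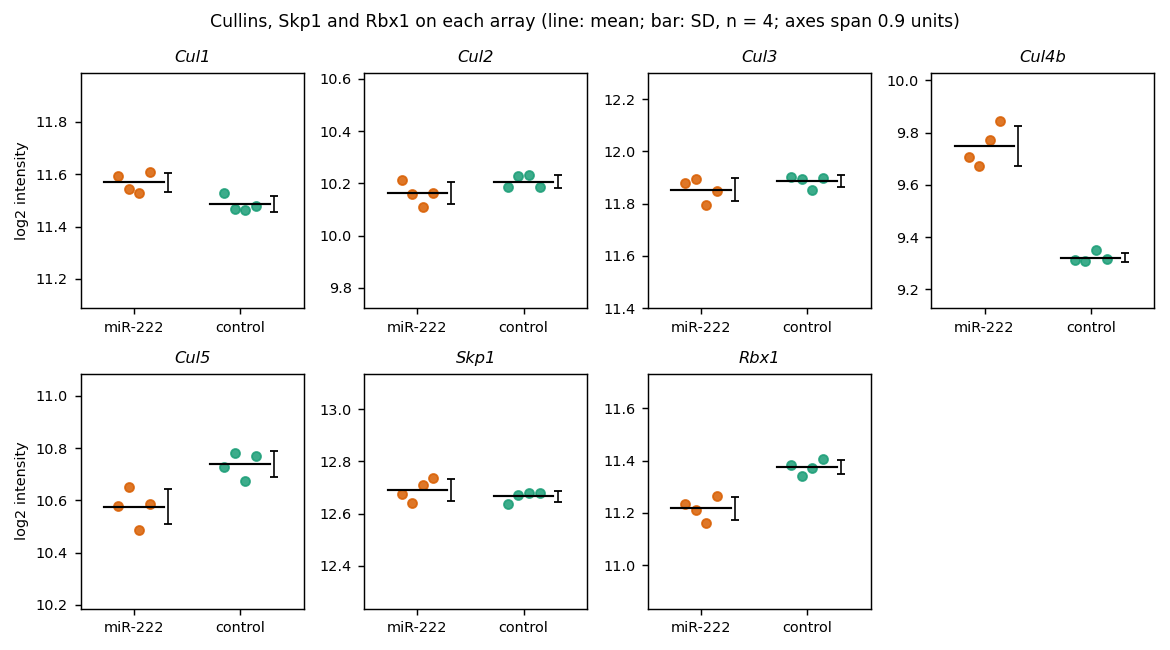
Log2 intensity of the 5 cullins, Skp1 and Rbx1 on each array, with miR-222 cells on the left and control cells on the right of each panel; points are arrays, lines are means, bars are SD (n = 4), and all panels span the same range. Cul4b is clearly above its controls, Rbx1 and Cul5 sit below theirs, and Cul2, Cul3 and Skp1 overlap.

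Skp2 was the only one of 14 leucine-rich repeat receptors to pass (7.14%, beside 24.7% of all genes). It is the SCF receptor that recognises the cell cycle inhibitor p27, the product of Cdkn1b. Skp2 read 8.12, 7.97, 7.98 and 8.12 in miR-222 cells, against 8.43, 8.38, 8.60 and 8.43 in control cells. All miR-222 arrays were lower than all control arrays, by a difference of -0.41 (SE 0.06), 1.33-fold (limma adjusted p = 0.00323), and the call held without any single array (highest adjusted p 0.0117). Cdkn1b, which is itself a reported target of miR-222, read 10.54, 10.56, 10.58 and 10.54 in miR-222 cells, against 10.93, 10.97, 10.95 and 10.94 in control cells. Transcripts of the receptor and of its substrate were therefore both lower, Cdkn1b by a difference of -0.39 (SE 0.04, limma adjusted p = 2.69e-04). Cks1b, the small protein that helps Skp2 to grip p27, read 11.44 to 11.67 in miR-222 cells and 11.72 to 11.80 in control cells. Its groups did not overlap, but the difference of -0.15 (SE 0.06) did not pass (limma adjusted p = 0.131).

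Some markers of several cell types were lower in the same arrays. The share that passed was 25% each for fibroblast, smooth muscle and endothelial markers. It was 33.3% for cardiomyocyte and 20% for macrophage and leukocyte markers, beside 24.7% of all genes (13.0% lower). No list was tested. The summed intensity of the 8 fibroblast markers was 7679.6 to 8787.4 in miR-222 cells and 8839 to 9817 in control cells, and 2 of 8 fell (Lum and Postn). The 4 smooth muscle markers summed to 11997 to 14607 in miR-222 cells and 15431 to 15828 in control cells, with 1 of 4 lower (Tagln), with both groups separate. The 4 endothelial markers summed to 736 to 849 in miR-222 cells and 1312 to 1408 in control cells, with 1 of 4 lower (Kdr). Kdr alone differed by -1.51 (SE 0.09), whereas Pecam1 (0.04), Tek (-0.02) and Cdh5 (-0.13) did not pass. The fibroblast marker Tcf21 (0.11) and the smooth muscle marker Myh11 (0.16) leaned upward without passing. The 9 cardiomyocyte markers summed to 76754 to 79021 in miR-222 cells and 84986 to 86500.4 in control cells, with 3 of 9 lower (Myh7, Nppa and Ryr2). The 5 macrophage and leukocyte markers summed to 529.7 to 585 in miR-222 cells and 518 to 552 in control cells, with 1 higher (C1qa), and no marker read 1 or below on any array. Their part in the results of the F-box and cullin genes was not tested. In such bulk samples fewer cells of a type and less RNA per cell cannot be told apart.

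The other 13 leucine-rich repeat receptors did not pass. Fbxl16 had the largest difference among them, 0.25 (SE 0.09, limma adjusted p = 0.116), with 7.81, 8.23, 7.93 and 7.82 in miR-222 cells and 7.78, 7.67, 7.64 and 7.72 in control cells. Its miR-222 values were all higher, with replicate 2 the highest by far. Fbxl8 followed at 0.23 (SE 0.08, limma adjusted p = 0.0951), and the mitochondrial F-box protein gene Fbxl4, known for its role in the removal of mitochondria, at 0.16 (SE 0.06, limma adjusted p = 0.112). Fbxl22, which is enriched in heart muscle and located at the Z-disc, read 11.08 to 11.42 in miR-222 cells and 11.13 to 11.32 in control cells. Its difference was -0.02 with a 95% interval of -0.20 to 0.16. Fbxl5, the iron sensor that controls the iron regulatory protein Ireb2, differed by 0.03 (95% interval -0.07 to 0.13). Fbxl20 was the one gene with a second probe set: the brighter set differed by -0.11 (SE 0.05, limma adjusted p = 0.183) and the dimmer set by -0.21 (SE 0.04, limma adjusted p = 0.00706), so its outcome depends on which set stands for it.

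In the group with other domains 5 of 28 rose and 2 fell, 25% in all and near the 24.7% of all genes. Fbxo3, a receptor known in other cells to mark the F-box protein Fbxl2 for destruction, was the clearest fall. Fbxo3 read 10.84, 10.94, 10.88 and 10.90 in miR-222 cells, against 11.35, 11.31, 11.31 and 11.28 in control cells. The gap between the groups was far wider than the spread within either, with a difference of -0.42 (SE 0.04), 1.34-fold, and the smallest adjusted p in the class (limma adjusted p = 3.17e-04). Fbxo28, a nuclear F-box protein that acts on Myc in human cells, read 9.82, 9.72, 9.73 and 9.82 in miR-222 cells, against 10.20, 10.11, 10.05 and 10.03 in control cells. It was lower on every miR-222 array, by a difference of -0.32 (SE 0.05, limma adjusted p = 0.00407). Both calls held without any single array (highest adjusted p 0.00224 for Fbxo3 and 0.0154 for Fbxo28).

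Fbxo7 rose most among the F-box proteins. It takes part in the removal of damaged mitochondria, its human gene is mutated in an early form of parkinsonism, and its protein binds a regulator of the proteasome. Fbxo7 read 10.43, 10.34, 10.37 and 10.42 in miR-222 cells, against 9.98, 9.97, 10.07 and 10.04 in control cells. The miR-222 arrays were all higher, by a difference of 0.38 (SE 0.04), 1.30-fold (limma adjusted p = 8.00e-04), and the call held without any single array (highest adjusted p 0.00479).

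Fbxo33, a receptor for the cold shock protein Ybx1 in human cells, read 9.64, 9.53, 9.43 and 9.57 in miR-222 cells, against 9.27, 9.18, 9.28 and 9.23 in control cells. It was higher on each miR-222 array, with a difference of 0.30 (SE 0.05, limma adjusted p = 0.00581). Fbxo31, which directs cyclin D1 to destruction after DNA damage in human cells, read 8.08, 8.11, 8.18 and 8.09 in miR-222 cells, against 7.89, 7.82, 7.97 and 7.88 in control cells. Its miR-222 values again lay all above, by 0.23 (SE 0.05, limma adjusted p = 0.0109), and both genes passed without any single array (highest adjusted p 0.0206 and 0.0363).

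Fbxo8 and Fbxo42 rose less firmly. Fbxo8, an F-box protein with a Sec7 domain of the kind that acts on Arf GTPases, read 10.56 to 10.59 in miR-222 cells and 10.36 to 10.44 in control cells. The difference was 0.17 (SE 0.04, limma adjusted p = 0.0164), and the call was lost without control replicate 2 (adjusted p = 0.0521) and with median centring. Fbxo42, a regulator of p53 in human cells, read 9.69 to 9.80 in miR-222 cells and 9.54 to 9.61 in control cells, a difference of 0.16 (SE 0.04, limma adjusted p = 0.0353). Its call was kept without miR-222 replicate 3 alone and was lost without any other single array (adjusted p up to 0.0904) and with median centring.

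Fbxo5 had the largest difference of all 57 genes without passing. It encodes Emi1, the inhibitor of the anaphase-promoting complex that lets cells build up cyclins before mitosis. Fbxo5 read 8.55, 8.45, 7.87 and 8.59 in miR-222 cells, against 8.92, 8.94, 9.24 and 8.54 in control cells. The groups overlapped, since control replicate 4 was lower than the highest miR-222 arrays while miR-222 replicate 3 stood well below the rest. The difference was -0.55 with a wide error (SE 0.19, 95% interval -0.99 to -0.10, limma adjusted p = 0.0912). Fbxo30, a ligase gene known from muscle wasting in mice, was -0.18 (SE 0.06, limma adjusted p = 0.105), and Fbxo43, the relative of Fbxo5 that acts in egg cells, was 0.16 (SE 0.06, limma adjusted p = 0.103).

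Among 8 receptors with WD40 repeats, 2 rose and 1 fell (37.5%, beside 24.7% of all genes, from few receptors). Fbxw9 read 7.87, 7.90, 7.98 and 7.81 in miR-222 cells, against 7.68, 7.52, 7.54 and 7.57 in control cells. It was higher on every miR-222 array, by 0.31 (SE 0.05, limma adjusted p = 0.00530), also without any single array (highest adjusted p 0.0194). Fbxw2, known as the receptor for the placental factor Gcm1 in human cells, read 10.50 to 10.66 in miR-222 cells and 10.36 to 10.42 in control cells, a difference of 0.20 (SE 0.05, limma adjusted p = 0.0173). That call was lost when control array 2 or miR-222 array 1 was left out (adjusted p of 0.0521 at most), and with median centring. Fbxw17 read 7.59 to 7.69 in miR-222 cells and 7.75 to 7.85 in control cells, a difference of -0.18 (SE 0.04, limma adjusted p = 0.0233), and its call was kept without control replicate 4 or miR-222 replicate 2 and was lost without any other single array.

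The pair of receptors that recognise beta-catenin and the inhibitor of NF-kappaB did not pass. Btrc read 10.91, 10.97, 10.84 and 10.98 in miR-222 cells, against 11.08, 11.07, 11.07 and 10.97 in control cells. The groups overlapped through control replicate 4, and the difference was -0.13 (SE 0.05, limma adjusted p = 0.120). Btrc passed in 1 of 16 alternative settings (a variance trend with robust priors, limma adjusted p = 0.0410). Its paralog Fbxw11 read 10.95 to 11.02 in miR-222 cells and 10.93 to 10.98 in control cells, with a difference of 0.02 (95% interval -0.07 to 0.11), or -0.0037 with median centring. Fbxw4 was 0.15 (SE 0.05), close to the threshold (limma adjusted p = 0.0588).

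**Figure D3:**
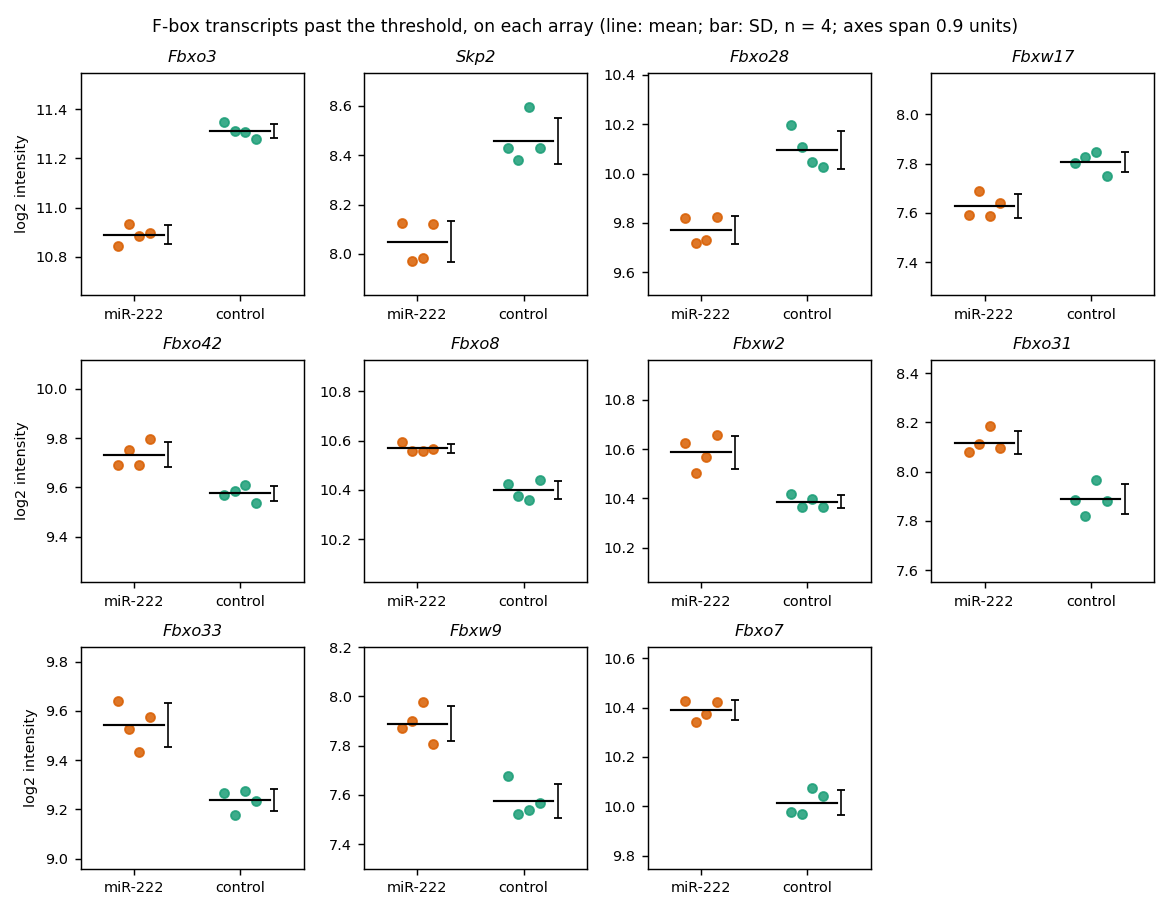
Log2 intensity on each array of the 11 F-box genes that passed the test, ordered from the largest fall (Fbxo3) to the largest rise (Fbxo7), with miR-222 cells left and control cells right in each panel; points are arrays, lines are means, bars are SD (n = 4), and all panels span the same range. The groups do not overlap in any of the 11 panels, and the gap is widest in Fbxo3, Skp2 and Fbxo7. The panels were chosen by the test on these same values, so the lack of overlap adds no support to it. Over all genes, 33.3% did not overlap.

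Before adjustment, 23 of the 57 genes had a p under 0.05, as had 37.3% of all genes. Of the 44 genes that did not pass, 10 were among these 23 and 34 were not. The differences of these 34 lay between -0.11 and 0.15, and their 95% intervals reached no further than -0.24 and 0.38. Dim signal limits some of these values. Probe sets of 43 of the 57 genes lay above the array median on all 8 arrays, 10 lay below it on all 8 and 4 on some arrays. Fbxl13, Fbxo15, Fbxo16, Fbxo17, Fbxo24, Fbxo36, Fbxo39, Fbxo41, Fbxo43 and Fbxo48 were the 10. The rises and falls rested on brighter probe sets in 11 of 13 genes, the exceptions being Fbxw9 and Fbxw17.

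Among 14 measured genes that control the attachment of Nedd8 to cullins, 5 fell and 1 rose, 42.9% in all, beside 24.7% of all genes. The list median was -0.02, beside 0.01 over all genes, and no test was made of the list. The list was chosen with earlier results of these data known, so its share cannot be read as an excess. Ube2f, the enzyme that passes Nedd8 to Cul5, read 11.02, 10.96, 10.83 and 10.95 in miR-222 cells, against 11.56, 11.49, 11.49 and 11.44 in control cells. All its miR-222 arrays were lower, by a difference of -0.55 (SE 0.05, limma adjusted p = 3.40e-04). Dcun1d1, a co-ligase for Nedd8, read 11.38 to 11.47 in miR-222 cells and 11.72 to 11.76 in control cells (difference -0.30, SE 0.04, limma adjusted p = 0.00117). Its relative Dcun1d5 was the member that rose, with 9.91 to 10.05 in miR-222 cells and 9.58 to 9.62 in control cells (difference 0.37, SE 0.04, limma adjusted p = 7.53e-04). Cand1, the exchange factor, was lower, with a difference of -0.30 (SE 0.05, limma adjusted p = 0.00467). Uba3, part of the enzyme that activates Nedd8, fell by 0.13, and the protease gene Senp8, which matures Nedd8, by 0.14, and each of these calls was lost without most single arrays (kept in 1 and 0 of 8). Rnf7, the RING partner of Cul5, differed by 0.08 (95% interval -0.02 to 0.17).

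Of 10 signalosome genes 1 was lower (beside 13.0% of all genes), Cops4 at -0.14 (SE 0.04, limma adjusted p = 0.0407), and that call remained without 1 of the 8 arrays only. The list median was 0.00. The next by p were Cops7b at 0.23 (SE 0.08), Cops6 at 0.10 and Cops3 at 0.09, none of which passed. Of 9 genes for ubiquitin-conjugating enzymes, Ariadne ligases and Cks proteins 0 passed in limma, beside 24.7% of all genes. Beside 37.3% of all genes, 2 of the 9 had an unadjusted limma p under 0.05. They were Cdc34, the conjugating enzyme of the SCF, at 0.15 (SE 0.05, limma adjusted p = 0.0799), and Cks1b. Arih2 was 0.06 and Ube2g1 0.03.

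Adaptors and receptors of the other cullins went both ways, with 7 of 31 higher and 6 lower (41.9% in all, beside 24.7% of all genes; median 0.08). This list, too, was chosen with earlier results of these data known, so its share cannot be read as an excess. No test was made of the list, and the total of 13 was 8 when control array 2, control array 4 or miR-222 array 4 was left out. Of all genes, 18.9%, 20.4% and 20.9% passed in those fits. Klhl13, a BTB receptor of Cul3 that acts in mitosis, stood at 10.04 ± 0.05 in miR-222 cells and at 9.45 ± 0.07 in control cells (mean ± SD, n = 4 each; difference 0.60, SE 0.05, limma adjusted p = 2.21e-04). Rhobtb3, a further protein with a BTB domain, rose by 0.65 (SE 0.06). Dcaf5, a receptor of the Cul4 ligases, read 9.94 to 10.03 in miR-222 cells and 10.40 to 10.41 in control cells (difference -0.43, SE 0.04, limma adjusted p = 2.48e-04). Socs4, a SOCS box receptor of Cul5, fell by 0.57 on the log2 scale (SE 0.06, limma adjusted p = 3.89e-04). Its relatives went the other way or did not pass. Socs6 rose by 0.59 (SE 0.11, limma adjusted p = 0.00751) and Socs5 by 0.21 (SE 0.06, limma adjusted p = 0.0312). The call of Socs5 was kept in 2 of the 8 fits without 1 array, and Socs1, Socs2 and Socs3 did not pass. Thus both directions occurred among these receptors.

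Of 30 measured transcripts of known SCF substrates, 9 were lower and 6 were higher, 50% in all, beside 24.7% of all genes. No test was made of the list, which had a median of -0.11 and a median size of 0.27, beside 0.12 over all genes and 0.09 over the F-box and cullin genes. Since the list was chosen with earlier results of these data known, neither its share nor its median size can be read as an excess. Ccnd1, encoding cyclin D1, read 10.19 to 10.27 in miR-222 cells and 11.24 to 11.36 in control cells, a difference of -1.08 (SE 0.05, limma adjusted p = 1.83e-05). The clock gene Per2, a substrate of Btrc, differed by -0.66 (SE 0.05, limma adjusted p = 1.48e-04), and Cdkn1a, which encodes p21, by 0.47 (SE 0.04, limma adjusted p = 3.17e-04). These are levels of RNA, and the ligases act on the proteins, which were not measured.

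**Figure D4:**
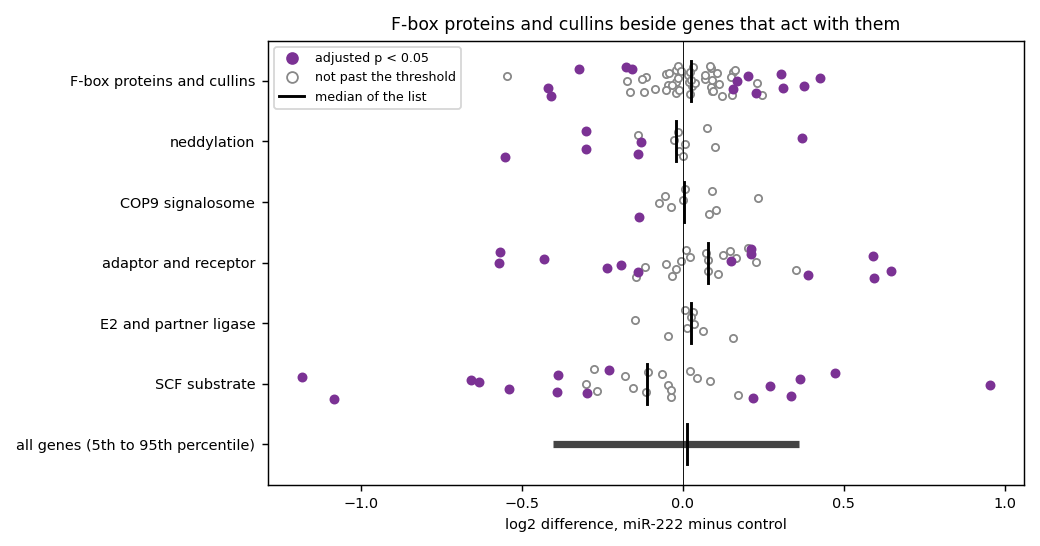
Log2 differences (miR-222 minus control) of the F-box and cullin genes and of the 5 lists of genes that act with them, one point per gene, filled where the adjusted p was under 0.05, with the median of each list as a black line. The bar for all genes runs from the 5th to the 95th percentile, -0.40 to 0.36, and each of the 6 sets above it has points on both sides of 0.

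Promoters are shown for the 3 genes with the largest differences past the threshold for which one was in the table of RefSeq promoters (build GRCr8), namely Cul4b, Skp2 and Fbxo7. Each run is the 250 bases before the annotated start, 5′ to 3′ on the strand of the gene, which is the minus strand in all 3. Capitals mark matches on either strand to GGGCGG (the GC box), CCAAT, TTTNNCGC (an E2F element) or CCGGAAG (the core of ETS sites). Cul4b lies at chrX:122192300-122192549, Fbxo7 at chr7:19725181-19725430 and Skp2 at chr2:59916472-59916721.
Cul4b: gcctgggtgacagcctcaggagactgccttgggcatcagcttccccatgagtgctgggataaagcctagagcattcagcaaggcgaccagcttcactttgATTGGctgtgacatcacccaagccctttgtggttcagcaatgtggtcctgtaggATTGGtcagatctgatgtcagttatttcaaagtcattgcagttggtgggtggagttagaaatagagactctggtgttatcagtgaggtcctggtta
Fbxo7: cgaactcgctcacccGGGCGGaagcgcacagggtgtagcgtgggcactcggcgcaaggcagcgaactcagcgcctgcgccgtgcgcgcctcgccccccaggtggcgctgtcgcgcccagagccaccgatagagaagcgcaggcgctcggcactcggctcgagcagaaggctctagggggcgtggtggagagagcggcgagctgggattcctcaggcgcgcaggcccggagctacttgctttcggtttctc
Skp2: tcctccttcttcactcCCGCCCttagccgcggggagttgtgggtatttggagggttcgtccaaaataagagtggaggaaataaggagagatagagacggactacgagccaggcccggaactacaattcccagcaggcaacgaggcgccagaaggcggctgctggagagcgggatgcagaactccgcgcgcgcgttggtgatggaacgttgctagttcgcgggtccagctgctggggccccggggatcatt

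The promoter of Cul4b held 2 matches to CCAAT and no GC box, and its GC content was 50%. Those of Fbxo7 and Skp2 held 1 GC box each, with GC contents of 70% and 60%, and none of the 3 held TTTNNCGC or CCGGAAG. Promoters were in the table for 48 of the 57 genes, with a median GC content of 59.8%, against 51.2% over all 33469 promoters. A GC box was present in 58.3% of the 48 and 30.5% of all promoters, and CCAAT in 27.1% of the 48 and 34.0% of all. TTTNNCGC was present in 14.6% of the 48 and 4.11% of all, and CCGGAAG in 16.7% of the 48 and 7.27% of all. These are counts of letters in a window and no test was made of them. The background was all promoters, not only those of measured genes, and it was not matched for GC content.

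Of the 13 genes that changed, 8 passed in each of the 8 fits that left out a single array: Fbxo3, Cul4b, Fbxo7, Skp2, Fbxo28, Fbxw9, Fbxo33 and Fbxo31. The other 5 were Fbxo8, Fbxw2, Fbxw17, Rbx1 and Fbxo42, and their differences lay between -0.18 and 0.20 log2 units. Over all genes, 2482 of the 3581 that passed did so in each of the 8 fits.

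**Figure D5:**
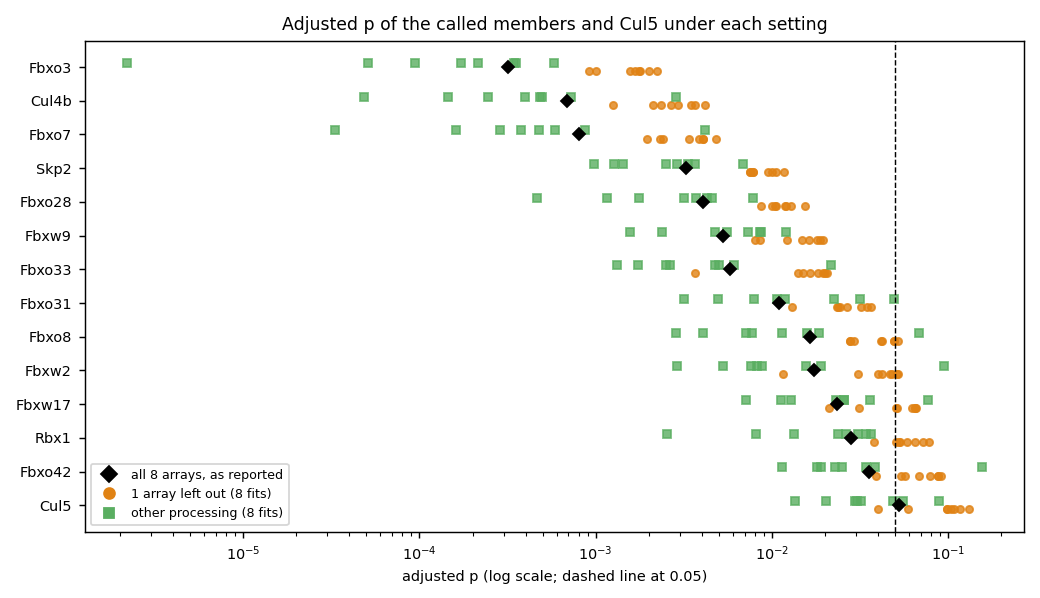
Adjusted p (log axis) of the 13 genes that passed and of Cul5, with the reported fit as a black diamond, the 8 fits that left out 1 array as circles and the 8 other processing settings as squares; the dashed line is the threshold of 0.05. The upper 8 genes stay left of the line in all 16 alternatives, whereas the points of the others lie on both sides.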

How the data were processed

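Biotin-labelled RNA of 8 samples was measured on Affymetrix rat arrays, per the labels' protocols. The table deposited by the authors held 29170 probe sets as linear intensities, and the sources used here do not give their normalization. The identifiers pair with the annotation of another Affymetrix rat array than the series text states, and that annotation gave the names: 15310 probe sets paired with 1 gene, 323 with several and 13537 with none. All 57 gene identifiers carried the same symbol in the current RefSeq table. Groups came from the transfection label, and replicates are numbered in listed order, with no pairing or batch in the labels.

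The deposited intensities were taken as log2 and fitted with limma 3.58.1 (lmFit and eBayes, R 4.3.3), miR-222 minus control, over all probe sets, with 2-sided p-values adjusted by Benjamini and Hochberg and a threshold of 0.05. Nothing was filtered in the reported fit. The number of arrays limits the precision. On simulated arrays with the same spread, 29170 probe sets and 200 changes, the fit recovered 7.40% of changes of 0.25, 63.6% of 0.5 and 93.1% of 1 log2 units, with 5.35% false calls. These rates apply to 200 changed probe sets only. In the data 3581 of 14506 genes passed, so they are not the rates of the reported fit. Named were all cullins, Skp1, Skp2, Rbx1, Btrc and Fbxw11, every other member past the threshold, the 5 largest differences not past it and up to 4 genes of each partner list by p; other genes were chosen after their values were seen. The members and lists were chosen with earlier results of these data known. Alternatives were quantile normalization, median centring, a pseudocount of 16, leaving out the dimmest 40% of probe sets, a variance trend with robust priors, array weights, gene means, representative probe sets only, and leaving out each array.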

Additional observations from a re-analysis of the deposited data

Results flagged for a closer look

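In 11 of 114 groups of 4 arrays, 1 array stood apart from the other 3 by Dixon's test at its 95% limit, where chance gives about 5.70. None of these genes passed the comparison, and no explanation was tested. Fbxo46 did so in both groups, with 8.45 in miR-222 replicate 2 (others 8.10 to 8.14) and 8.27 in control replicate 4 (others 8.19 to 8.20). Among miR-222 arrays, Fbxw8 read 9.42 in replicate 3 (others 9.54 to 9.55) and Fbxo15 6.84 in replicate 1 (others 7.01 to 7.04). Control replicate 2 read 8.04 for Fbxl15 (others 7.93 to 7.94), 9.85 for Fbxo4 (others 9.89 to 9.90) and 6.19 for Fbxl13 (others 6.50 to 6.56). Control replicate 1 read 8.97 for Fbxw4 (others 8.85 to 8.86) and 12.64 for Skp1 (others 12.67 to 12.68). Btrc read 10.97 in control replicate 4 (others 11.07 to 11.08), and Cul3 read 11.85 in control replicate 3 (others 11.89 to 11.90).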

How the results depend on the processing

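The direction of all 13 genes past the threshold was the same in the 16 alternatives, and 8 of them passed in every one. Median centring gave 5 genes higher in place of 8, with Fbxo42, Fbxo8 and Fbxw2 lost, and turned the near-zero differences of Fbxw11 (to -0.0037) and Skp1 (to -0.00076), which had not passed. With it, 3054 of all genes passed in place of 3581. The variance trend with robust priors lost Fbxw17 and gained Btrc, Cul5 and Fbxo30. With it 15 of the 57 genes passed, 26.3% against 28.9% of all genes. With the dimmest probe sets left out, 49 of the 57 genes stayed and 17 passed, 34.7% against 42.6% of all genes, and Fbxo5 was among those gained. Leaving out 1 array gave 5 to 8 genes higher, 3 to 6 lower and 2687 to 3405 of all genes, where fewer samples entered the fit. The adaptor and receptor list then had 8 to 11 genes in place of 13, and the COP9 list 0 to 1. That list had 0 with quantile normalization or median centring and 2 without dim probe sets or with the variance trend. The list of conjugating enzymes and partners had 1 in place of 0 without dim probe sets, with the variance trend or with representative probe sets only. The causes were not tested. No paired analysis was possible because the labels carry no replicate numbers. Dim probe sets and 4 arrays per group limit what small differences can show.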

Other observations

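F-box proteins that carry other symbols lie outside the rule, and 5 of them are given here. They were picked after the results were known, except that Ccnf was already counted in the list of SCF substrates. Lmo7, a LIM domain protein of cell junctions that also holds an F-box, stood at 11.13 ± 0.09 in miR-222 cells and at 11.44 ± 0.03 in control cells (mean ± SD, n = 4 each), a difference of -0.31 (SE 0.05, limma adjusted p = 0.00547). The groups did not overlap, and the call held without any single array (highest adjusted p 0.0218). Kdm2a, a histone demethylase with an F-box, was 10.34 ± 0.11 in miR-222 cells and 10.17 ± 0.05 in control cells and did not pass (difference 0.17, SE 0.06, limma adjusted p = 0.107). The other three did not pass either: Kdm2b differed by 0.03 (95% interval -0.08 to 0.14), the helicase gene Fbh1 by -0.05 (95% interval -0.15 to 0.05) and Ccnf, encoding cyclin F, by 0.02 (95% interval -0.39 to 0.44).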
